A study of Mus musculus with 13 samples.

Results

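The genes described here are 10 mouse genes that neurons are known to switch on after damage to their axons or during regrowth: the transcription factor genes Atf3, Jun and Sox11, the growth and injury effector genes Gap43, Sprr1a and Ecel1, and the secreted peptide genes Adcyap1, Gal, Vgf and Npy. They were listed by symbol with earlier results of these data known, matched through GENCODE gene names, and make up 10 of the 48709 gene rows of each count table. All 10 passed the filter on low counts. Levels come from RNA sequencing of 13 libraries of spinal motoneurons, each from 1 mouse with the SOD1-G93A mutation, a model of amyotrophic lateral sclerosis, taken at 65 days of age. The AAV-miR SOD1 group (n = 4) was injected in the brain ventricles as newborns, at P2, with an adeno-associated virus (AAV) carrying an artificial microRNA against human SOD1 for expression in astrocytes. The AAV-miR ctrl group (n = 5) was given the control virus, and littermates left without injection made up the non-injected group (n = 4). All mice carried the mutation and no healthy mice were analysed here, so a level cannot be set against that of a healthy motoneuron. Each library was made from 500 motoneurons cut by laser from stained lumbar cord that had been embedded inside its vertebrae, so it also holds RNA of whatever lay within or beside the cut area. The promoter that limits the microRNA to astrocytes is not given in the sources used here.

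A neuron whose axon is cut or degenerates sends signals back to the nucleus, where kinase pathways activate Jun and induce Atf3, a partner of Jun in AP-1 dimers. These factors, with Sox11, belong to the programme that peripheral neurons use for regrowth, which includes growth cone proteins and secreted neuropeptides. In motoneurons this programme is best known from nerve lesions, and members of it are also used as signs of axonal stress in disease models.

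AP-1 and related dimers bind short palindromes or near-palindromes. Each of 3 such motifs was searched on both strands in the 250 bases upstream of each gene's start in the RefSeq promoter table (GRCm38.p6), because these genes are usually discussed as targets of Jun and Atf3. The table matched 8 of the 10 genes with 9 promoters. Gap43 and Vgf had no match in the table. The AP-1 motif TGACTCA (reverse complement TGAGTCA) was in 4.46% of all 32851 promoters of this length, the cAMP response element TGACGTCA in 1.55% and the element TGACATCA (reverse complement TGATGTCA), of the type in the Jun promoter, in 2.93%. No motif overlaps another in the matches found. Among the 9 promoters, TGACTCA was in 1, TGACGTCA in 0 and TGACATCA in 3. The match in Jun was known beforehand, because TGACATCA was chosen as an element of the Jun promoter. The promoter windows of Adcyap1 overlap each other. The counts are therefore no test of enrichment. The promoters with a match belong to Sprr1a, Jun and Sox11 and are printed 5′ to 3′ on the gene's strand, with the matches in capitals.
Sprr1a, chr3:92485882-92486131, minus strand: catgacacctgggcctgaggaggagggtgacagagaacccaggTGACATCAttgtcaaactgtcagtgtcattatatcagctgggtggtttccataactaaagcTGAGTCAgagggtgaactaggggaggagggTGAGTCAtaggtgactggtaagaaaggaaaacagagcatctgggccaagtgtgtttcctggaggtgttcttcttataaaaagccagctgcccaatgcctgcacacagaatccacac
Jun, chr4:95052223-95052472, minus strand: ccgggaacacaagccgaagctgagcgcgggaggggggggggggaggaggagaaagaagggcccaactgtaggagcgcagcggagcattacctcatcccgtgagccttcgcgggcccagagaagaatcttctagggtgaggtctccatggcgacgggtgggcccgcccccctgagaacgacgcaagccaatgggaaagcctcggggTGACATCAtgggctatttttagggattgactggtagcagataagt
Sox11, chr12:27342719-27342968, minus strand: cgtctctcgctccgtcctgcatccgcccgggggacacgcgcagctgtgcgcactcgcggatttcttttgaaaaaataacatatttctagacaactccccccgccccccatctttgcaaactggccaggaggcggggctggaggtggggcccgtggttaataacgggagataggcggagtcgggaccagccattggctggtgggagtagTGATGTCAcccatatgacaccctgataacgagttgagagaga
The Sprr1a promoter held 2 matches to the AP-1 motif, 146 and 116 bases upstream of the start, and 1 match to TGACATCA 207 bases upstream. In Jun the match began 45 bases upstream and in Sox11, on the other strand, 42 bases upstream. A match describes letters only. No binding was measured.

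Gene counts ran from 13.9 to 37.4 megacounts per library, and the 4 libraries numbered 5 or 6, all of them controls, were the deepest. The column headers of 2 tables went against their labels: the header of the library labelled non-injected replicate 3 read miRCtrl, and that of the library labelled AAV-miR ctrl replicate 3 read SOD. Groups follow the labels here, and results that rest on these libraries are given with and without them. All 8 motoneuron markers were detected in every library. Their summed level was 716 to 1381 CPM (counts scaled to a common library size) in the AAV-miR SOD1 group, 973 to 2746 in AAV-miR ctrl and 1189 to 2961 in non-injected, with medians of 830.1, 1293 and 2234. Sensory neuron markers summed to 0.623 to 4.36, 1.37 to 77.4 and 0.358 to 2.45 CPM in the same groups; AAV-miR ctrl replicates 3 and 4 stood apart at 77.4 and 40.8. In non-injected libraries 4 of the 6 sensory markers were at 0 throughout, in AAV-miR SOD1 libraries 2. Erythroid markers summed to 21085 to 47681, 3585 to 28303 and 5596 to 20363 CPM, and microglia and macrophage markers to 748 to 1009, 436 to 1191 and 259 to 659 CPM.

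Per kilobase of exon, the highest of the 10 genes was Vgf, with a mean of 50.4 ± 36.1 (SD, n = 13 libraries) CPM per kilobase. Gap43 (22.1 ± 10.1), Ecel1 (21.3 ± 15.8), Jun (17.7 ± 10.3) and Sprr1a (16.8 ± 16.1) followed on the same scale. Gal had 8.99 ± 4.92, Atf3 7.06 ± 4.37, Npy 4.15 ± 4.70, Adcyap1 0.799 ± 0.857 and Sox11 0.567 ± 0.265 CPM per kilobase. Vgf lay above Gap43 in 12 of 13 libraries. The order of each later pair of neighbours held in 5 to 11 of the 13 libraries, within the spread between libraries. The genes also differed in how much replicates of a group varied. The SD of log2 CPM within groups was 2.08 for Adcyap1, 2.03 for Sprr1a and 1.68 for Npy, at the percentiles 99.2, 99.1 and 97.6 of all genes tested. It was 0.46 for Gap43 and 0.54 for Sox11, at the percentiles 40.7 and 50.6.

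**Figure D1:**
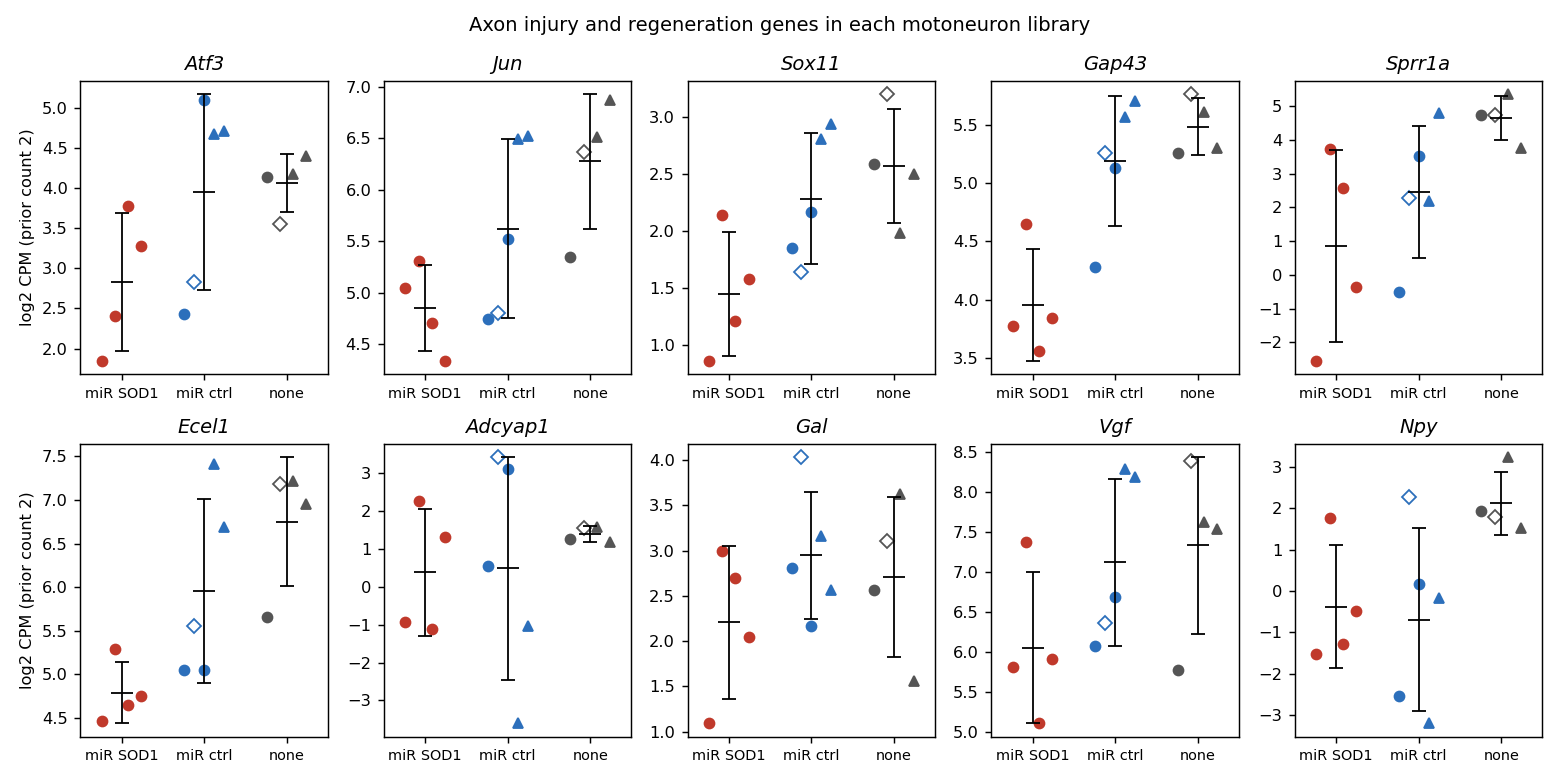
Each panel plots 1 gene, with log2 CPM (prior count 2) on the vertical axis and the AAV-miR SOD1 (red), AAV-miR ctrl (blue) and non-injected (grey) groups on the horizontal axis; each point is 1 library and bars give the mean ± SD. Triangles are libraries numbered 5 or 6 and open diamonds the 2 libraries whose header goes against the label. All 4 AAV-miR SOD1 libraries lie below all 4 libraries labelled non-injected for Jun, Gap43, Sprr1a and Ecel1. For Jun and Sprr1a, AAV-miR ctrl replicate 3, whose header reads SOD, lies below the highest AAV-miR SOD1 library.

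In AAV-miR SOD1 motoneurons the estimates of all 10 genes were lower than in both control groups. Gap43 and Ecel1 had the smallest p-values of the 10, with log2 fold changes of -1.37 ± 0.28 and -1.75 ± 0.46 (SE, n = 4 against 9 libraries) against both control groups by edgeR, and the neuropeptide genes Gal, Npy and Adcyap1 the largest. No gene passed an adjusted p of 0.05 in edgeR's quasi-likelihood test, among the 10 or among all 17403 genes tested (percent called 0% against AAV-miR ctrl, 0% against non-injected and 0% against both). Each library was made from 500 motoneurons. In this bulk material, fewer cells with a transcript, less of it per cell and more RNA of other cells cannot be told apart. The 3 comparisons of AAV-miR SOD1 use the same 4 libraries, and that against both controls uses the libraries of the other two, so their values are given side by side and are not independent.

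Against AAV-miR ctrl, 10 of 10 genes had a log2 fold change below 0, where 53.7% of all genes tested did. At an unadjusted p under 0.05, 5 of the 10 were lower (Atf3, Jun, Sox11, Gap43 and Ecel1) and 0 higher, beside 8.54% and 5.99% of all genes. The groups overlapped for all 10, beside 2.46% of all genes that were lower without overlap. Against non-injected, 10 of 10 were below 0 beside 55.1% of all genes, and 5 of the 10 were lower at that level (Jun, Sox11, Gap43, Sprr1a and Ecel1) and 0 higher, beside 11.5% and 9.36%. There the libraries of 4 genes (Jun, Gap43, Sprr1a and Ecel1) did not overlap, beside 5.81% of all genes that were lower without overlap. For Jun and Sprr1a this rests on the labels. AAV-miR ctrl replicate 3, whose header reads SOD, had 27.8 and 4.77 CPM of them, below AAV-miR SOD1 replicate 2 (39.7 and 13.2 CPM). Against both control groups together, 10 of 10 were below 0 beside 54.2%, and Atf3, Jun, Sox11, Gap43 and Ecel1 were lower at the unadjusted level and 0 higher, beside 12.1% and 10.2% of all genes. None of the 10 was lower without overlap there, beside 1.23%. Of the 8 motoneuron markers in that comparison, 8 were below 0, 8 were lower at the unadjusted level and 2 without overlap, with a median of -1.06. The median log2 fold change of the 10 was -1.02, -1.38 and -1.20 in these 3 comparisons, beside -0.04, -0.09 and -0.06 over all genes. DESeq2, which called 0.994%, 5.72% and 8.50% of all genes in these comparisons, called 1 of the 10 against AAV-miR ctrl (Gap43, adjusted p = 0.0214) and 3 in each of the others, Jun, Gap43 and Ecel1 (against both, adjusted p = 0.0313, 0.00113 and 0.00652). Against both controls, edgeR without AAV-miR ctrl replicate 1 called the same 3 genes, beside 9.84% of all genes, with adjusted p = 0.0416, 0.0203 and 0.0279, and limma-voom with quality weights called Gap43 and Ecel1, beside 8.40%. Counts were also simulated for the comparison against both, with the spread typical of genes at each level. On them DESeq2 made 26 false calls, edgeR 5 and limma-voom 3.

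Atf3, the bZIP factor induced by axotomy, had 3.52, 5.23, 13.6 and 9.61 CPM in AAV-miR SOD1 replicates 1 to 4. It had 5.30, 7.04, 34.0, 25.4 and 26.0 CPM in AAV-miR ctrl replicates 1, 3, 4, 5 and 6, and 17.5, 11.7, 18.0 and 21.1 CPM in non-injected replicates 2, 3, 5 and 6. The groups overlapped: AAV-miR ctrl replicates 1 and 3 lay among the AAV-miR SOD1 libraries, the other 3 were above every AAV-miR SOD1 library, and non-injected replicate 3 was below AAV-miR SOD1 replicate 3. The edgeR log2 fold change was -1.29 ± 0.53 (SE; unadjusted p = 0.0297, adjusted p = 0.305) against AAV-miR ctrl and -1.09 ± 0.55 (unadjusted p = 0.0666, adjusted p = 0.274) against non-injected. Against AAV-miR ctrl the unadjusted p was above 0.05 without AAV-miR SOD1 replicate 1 or 2 or AAV-miR ctrl replicate 4, 5 or 6, and against non-injected it was under 0.05 without AAV-miR SOD1 replicate 3 or AAV-miR ctrl replicate 1.

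Jun, the AP-1 subunit whose kinase pathway reports axon damage, had 32.9, 39.7, 26.1 and 20.2 CPM in the 4 AAV-miR SOD1 libraries, in the order given above. In AAV-miR ctrl it had 26.8, 27.8, 46.0, 89.9 and 91.9 CPM, and in non-injected 40.7, 82.2, 91.3 and 117 CPM. AAV-miR ctrl replicates 1 and 3 again lay within the AAV-miR SOD1 range, while the lowest non-injected library was just above the highest AAV-miR SOD1 library. By edgeR, the log2 fold change of Jun was -0.93 ± 0.41 (SE; unadjusted p = 0.0407, adjusted p = 0.323) against AAV-miR ctrl and -1.48 ± 0.43 (unadjusted p = 0.00426, adjusted p = 0.140) against non-injected. Against AAV-miR ctrl it ran up to -0.65 (unadjusted p = 0.133, without AAV-miR ctrl replicate 6), and p was also above 0.05 without AAV-miR SOD1 replicate 1, 3 or 4, AAV-miR ctrl replicate 5 or non-injected replicate 5. An antisense transcript gene, Junos, covers 232 bases (7.3%) of the Jun exons in GENCODE M21, and with the strand setting not given in the sources used here its reads cannot be told apart from those of Jun there. No exon of the other 9 genes overlaps that of another gene.

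Sox11, a SoxC factor of developing and regrowing neurons, had 1.74, 4.32, 2.23 and 2.91 CPM in AAV-miR SOD1. AAV-miR ctrl libraries had 3.53, 3.04, 4.42, 6.94 and 7.58 CPM and non-injected libraries 5.95, 9.11, 3.87 and 5.58 CPM. Of the AAV-miR SOD1 libraries 3 were below all 9 controls, and replicate 2 overlapped both control groups. For Sox11, edgeR gave a log2 fold change of -0.87 ± 0.39 (SE; unadjusted p = 0.0428, adjusted p = 0.328) and -1.13 ± 0.41 (unadjusted p = 0.0154, adjusted p = 0.157) against AAV-miR ctrl and non-injected. The unadjusted p of Sox11 was above 0.05 against AAV-miR ctrl without AAV-miR SOD1 replicate 1, 3 or 4, AAV-miR ctrl replicate 5 or 6 or non-injected replicate 2 or 6, and against non-injected without its replicate 3.

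Gap43 encodes a membrane protein of growth cones and presynaptic endings. It had 13.6, 25.1, 11.7 and 14.2 CPM in AAV-miR SOD1 replicates 1 to 4, 19.4, 38.4, 35.0, 47.4 and 52.1 CPM in AAV-miR ctrl and 38.2, 54.3, 48.9 and 39.5 CPM in non-injected. AAV-miR SOD1 replicate 2, the highest of its group, and AAV-miR ctrl replicate 1, the lowest of its own, were the 2 libraries that overlapped; every non-injected library was above every AAV-miR SOD1 library. The group means were 16.1 ± 6.05 (SD, n = 4), 38.5 ± 12.7 (SD, n = 5) and 45.2 ± 7.73 (SD, n = 4) CPM. In edgeR's fit the log2 fold change of Gap43 was -1.25 ± 0.30 (SE; unadjusted p = 0.000847, adjusted p = 0.256) against AAV-miR ctrl, -1.49 ± 0.31 (unadjusted p = 0.000280, adjusted p = 0.140) against non-injected and -1.37 ± 0.28 (unadjusted p = 0.000216, adjusted p = 0.0960) against both. Its p against both was the 29th smallest of all genes tested. Of the 10 genes, Gap43 alone was lower at an unadjusted p under 0.05 in every alternative run: 28 of 28 against AAV-miR ctrl, 28 of 28 against non-injected and 27 of 27 against both.

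Ecel1 encodes an endopeptidase-like membrane protein (also called DINE) that damaged neurons induce. It had 22.0, 39.1, 25.0 and 26.9 CPM in AAV-miR SOD1, a narrow range beside 33.0, 46.9, 33.1, 170.4 and 103 CPM in AAV-miR ctrl and 50.4, 145, 149 and 123 CPM in non-injected. The overlap was confined to AAV-miR SOD1 replicate 2 against AAV-miR ctrl replicates 1 and 4. Ecel1 had an edgeR log2 fold change of -1.46 ± 0.49 (SE; unadjusted p = 0.00996, adjusted p = 0.270) against AAV-miR ctrl, -2.05 ± 0.52 (unadjusted p = 0.00136, adjusted p = 0.140) against non-injected and -1.75 ± 0.46 (unadjusted p = 0.00202, adjusted p = 0.0960) against both. Without AAV-miR ctrl replicate 5 it was -0.94 (unadjusted p = 0.0377) against AAV-miR ctrl.

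Sprr1a encodes a small proline-rich protein that is scarce in intact neurons and strongly induced by nerve lesions. In AAV-miR SOD1 it had 0.0890, 13.2, 5.88 and 0.695 CPM, from 2, 274, 124 and 11 counts, so replicate 1 was under the 3 counts taken as the detection floor. AAV-miR ctrl libraries had 0.619, 4.77, 11.4, 4.50 and 27.6 CPM, and non-injected libraries 26.8, 26.5, 40.7 and 13.5 CPM. Both injected groups thus ran over a wide range, and the non-injected libraries were all above the AAV-miR SOD1 libraries, the nearest pair by a narrow margin. The log2 fold change of Sprr1a by edgeR was -0.98 ± 1.01 (SE; unadjusted p = 0.352, adjusted p = 0.687) against AAV-miR ctrl and -2.44 ± 1.09 (unadjusted p = 0.0428, adjusted p = 0.223) against non-injected. With 1 library left out, Sprr1a against AAV-miR ctrl had -2.14 without AAV-miR SOD1 replicate 2, -0.57 and -0.62 without AAV-miR SOD1 replicates 1 and 4, and -0.037 without AAV-miR ctrl replicate 6. Against non-injected it ran from -3.59 (without AAV-miR SOD1 replicate 2) to -2.03 (without replicate 1), with the unadjusted p above 0.05 in 8 of the 13 fits that leave out 1 library.

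Vgf, the precursor of several secreted peptides and the most abundant of the 10 per kilobase, had 56.1, 166, 34.5 and 60.1 CPM in AAV-miR SOD1. AAV-miR ctrl libraries had 67.1, 82.4, 103, 314 and 292 CPM and non-injected libraries 54.8, 335, 198 and 186 CPM. The groups overlapped through AAV-miR SOD1 replicate 2, which was above AAV-miR ctrl replicates 1, 3 and 4, and through non-injected replicate 2, which was below AAV-miR SOD1 replicates 1, 2 and 4. Vgf had an edgeR log2 fold change of -1.12 ± 0.60 (SE; unadjusted p = 0.0856, adjusted p = 0.407) against AAV-miR ctrl and -1.29 ± 0.63 (unadjusted p = 0.0600, adjusted p = 0.261) against non-injected. Without AAV-miR SOD1 replicate 2 Vgf had -1.76 (unadjusted p = 0.0139) and -1.92 (unadjusted p = 0.0102); its unadjusted p was also under 0.05 without AAV-miR ctrl replicate 1 in the first comparison and without non-injected replicate 2 in the second.

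Gal, the galanin precursor, had 2.05, 7.92, 6.40 and 4.05 CPM in AAV-miR SOD1, 6.94, 16.3, 4.42, 8.83 and 5.82 CPM in AAV-miR ctrl and 5.81, 8.54, 12.2 and 2.86 CPM in non-injected. The 3 groups overlapped over most of their range. The edgeR log2 fold change of Gal was -0.73 ± 0.49 (SE; unadjusted p = 0.162, adjusted p = 0.509) against AAV-miR ctrl and -0.53 ± 0.52 (unadjusted p = 0.323, adjusted p = 0.596) against non-injected. Without 1 library Gal ran from -1.03 (without AAV-miR SOD1 replicate 2) to -0.30 (without AAV-miR ctrl replicate 3) in the first comparison and from -0.82 (without AAV-miR SOD1 replicate 2) to -0.13 (without non-injected replicate 5) in the second.

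Npy, the neuropeptide Y precursor, had 0.267, 3.31, 0.332 and 0.632 CPM in AAV-miR SOD1 and 0.0884, 4.77, 1.05, 0.0263 and 0.812 CPM in AAV-miR ctrl. Non-injected libraries had 3.74, 3.36, 9.36 and 2.80 CPM. In each injected group a single library, AAV-miR SOD1 replicate 2 and AAV-miR ctrl replicate 3, reached the non-injected range. The 2 counts in AAV-miR ctrl replicate 1 and the 1 count in replicate 5 are under the floor of 3. The edgeR log2 fold change of Npy was -0.23 ± 1.08 (SE; unadjusted p = 0.833, adjusted p = 0.945) against AAV-miR ctrl and -2.08 ± 1.15 (unadjusted p = 0.0914, adjusted p = 0.319) against non-injected. Against AAV-miR ctrl Npy had 1.31 without AAV-miR ctrl replicate 3 and -1.71 without AAV-miR SOD1 replicate 2, and against non-injected -3.55 (unadjusted p = 0.0158) without the latter.

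Adcyap1 encodes PACAP, a peptide that supports neuron survival and is also made by sensory neurons. It had 0.445, 4.75, 0.379 and 2.40 CPM in AAV-miR SOD1 and 2.31, 2.85, 2.92 and 2.21 CPM in non-injected, where the 4 libraries were close together. AAV-miR ctrl had 1.37, 10.6, 8.55, 0 and 0.406 CPM; the 0 counts in replicate 5 allow up to 0.0789 CPM. Its 2 highest libraries, AAV-miR ctrl replicates 3 and 4, were those with the highest summed sensory neuron markers. The edgeR log2 fold change was -1.06 ± 1.15 (SE; unadjusted p = 0.373, adjusted p = 0.703) against AAV-miR ctrl, and 1.81 ± 1.15 (unadjusted p = 0.141) with those 2 libraries left out. Leaving out the 2 highest control libraries was bound to raise the estimate, and the part of sensory neuron RNA was not tested. The log2 fold change against AAV-miR ctrl was -1.97 without AAV-miR SOD1 replicate 2 and -0.31 without AAV-miR ctrl replicate 3. Against non-injected it was -0.37 ± 1.19 (unadjusted p = 0.762, adjusted p = 0.890), and ran from -1.26 without AAV-miR SOD1 replicate 2 to 0.034 without replicate 3.

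**Figure D2:**
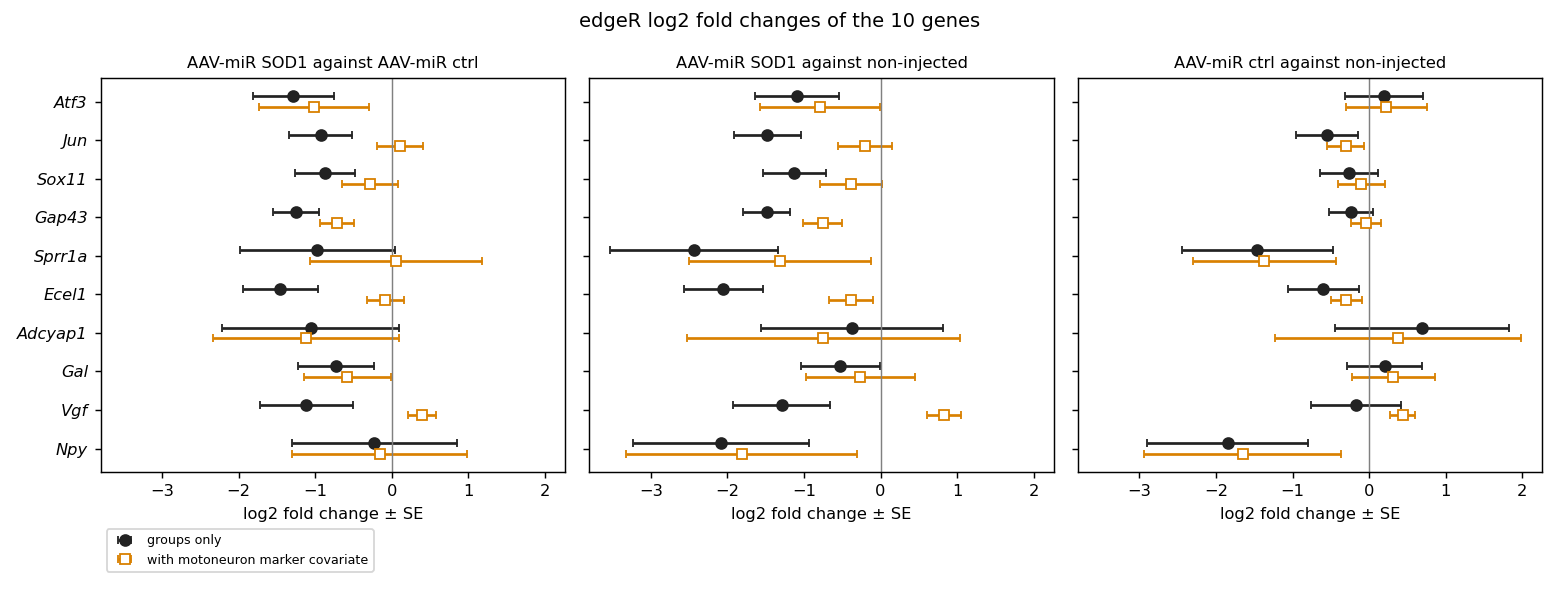
Points give the edgeR log2 fold change of each gene and bars ± SE, for AAV-miR SOD1 against AAV-miR ctrl (left) and against non-injected (middle), and for the 2 control groups (right); black circles are the fit on groups only and open orange squares the fit with the summed motoneuron markers as a covariate. On groups only, all 10 genes lie below 0 in the first 2 panels; with the covariate, Jun, Ecel1 and Sprr1a lie nearer to 0, Gap43 stays below it and Vgf lies above it.

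The control vector itself was compared with no injection. None of the 10 genes passed an adjusted p of 0.05 in AAV-miR ctrl against non-injected by edgeR (0% of all genes passed) or an unadjusted p under 0.05 (0 of 10 lower and 0 higher, beside 2.24% and 1.38% of all genes). None was lower without overlap, beside 0.517%. The largest estimates were those of Npy, at -1.85 ± 1.05 (SE; unadjusted p = 0.101 by edgeR), and Sprr1a, at -1.46 ± 0.98 (unadjusted p = 0.160). Ecel1 had -0.60 ± 0.47, Jun -0.55 ± 0.40, Sox11 -0.26 ± 0.38, Gap43 -0.23 ± 0.29 and Vgf -0.17 ± 0.59. Atf3 (0.19 ± 0.51), Gal (0.20 ± 0.49) and Adcyap1 (0.69 ± 1.13) were above 0, so 7 of 10 were below 0 beside 52% of all genes, with a median of -0.25 beside -0.01. With both libraries with contradicting headers left out the log2 fold change of Npy was -3.45 ± 1.12 (unadjusted p = 0.00993), and with both exchanged it was -2.30 ± 1.01 (unadjusted p = 0.0390), while exchanging them took Adcyap1 to -0.80 and Vgf to 0.77. With AAV-miR ctrl replicates 3 and 4 left out Npy had -3.93 ± 1.18 (unadjusted p = 0.00598, adjusted p = 1.00), and without AAV-miR ctrl replicate 3 alone -3.32 (unadjusted p = 0.00709). Ecel1 had -1.11 (unadjusted p = 0.0169 by edgeR) without AAV-miR ctrl replicate 5, and Sprr1a -2.35 (unadjusted p = 0.0394) without AAV-miR ctrl replicate 6.

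Values of AAV-miR SOD1 against both controls are given here with these 2 libraries in and with both left out. Gap43 had -1.37 ± 0.28 (SE) and -1.26 ± 0.29, Ecel1 -1.75 ± 0.46 and -1.69 ± 0.48, and Jun -1.20 ± 0.39 and -1.22 ± 0.38. Sox11 had -0.999 ± 0.36 and -0.88 ± 0.34, and Atf3 -1.19 ± 0.49 and -1.31 ± 0.47. In this comparison the unadjusted p was above 0.05 for Atf3 without AAV-miR SOD1 replicate 1 or 2 and for Sox11 without AAV-miR SOD1 replicate 1 or 3. Against non-injected, Sox11 (unadjusted p = 0.0649) and Sprr1a (unadjusted p = 0.0743) were above 0.05 by edgeR with both left out.

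All AAV-miR SOD1 libraries are numbered 1 to 4, and the 4 deep libraries numbered 5 or 6 include the highest Jun, Ecel1, Sprr1a and Npy libraries of the series. The labels do not say what the numbers mark. Among the libraries numbered 1 to 4 alone, AAV-miR SOD1 against both controls gave Gap43 -1.20 ± 0.31 (SE; unadjusted p = 0.00312 by edgeR), Ecel1 -1.08 ± 0.33 (unadjusted p = 0.00770) and Sox11 -0.89 ± 0.37 (unadjusted p = 0.0371). Jun had -0.59 ± 0.30 (unadjusted p = 0.0824), Atf3 -0.90 ± 0.58 (unadjusted p = 0.154) and Vgf -0.66 ± 0.56 (unadjusted p = 0.271) there.

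The median summed motoneuron marker level was lowest in the AAV-miR SOD1 group, and AAV-miR SOD1 replicate 2, which had the highest sum of its group, also had the highest level of 9 of the 10 genes within it (Atf3 was highest in replicate 3). How many of all genes tested were highest in replicate 2 within the group was not counted. With the log2 sum as a covariate, AAV-miR SOD1 against both controls gave Jun -0.05 ± 0.30 (SE), Ecel1 -0.24 ± 0.24, Sox11 -0.34 ± 0.35, Sprr1a -0.63 ± 1.07 and Atf3 -0.90 ± 0.71. Gap43 kept an estimate of -0.73 ± 0.22 (unadjusted p = 0.00567, adjusted p = 0.658 by edgeR), and Vgf turned to 0.61 ± 0.18 (unadjusted p = 0.00577). Among the 10 genes 2 were under 0.05 unadjusted, beside 7.34% of all genes in that fit. All 8 motoneuron markers were themselves below 0 in the comparison without the covariate. The fit can therefore take out a change in motoneuron transcripts along with a difference in captured material, and the design cannot tell them apart. Prph, the peripherin gene, made up 29.6% of the marker sum and is itself known to be induced in injured neurons; without it Gap43 had -0.67 ± 0.23 and Vgf 0.76 ± 0.22. The erythroid and microglial sums, whose medians were highest in the AAV-miR SOD1 group, moved with the same contrast, and their part in the values was not tested.

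**Figure D3:**
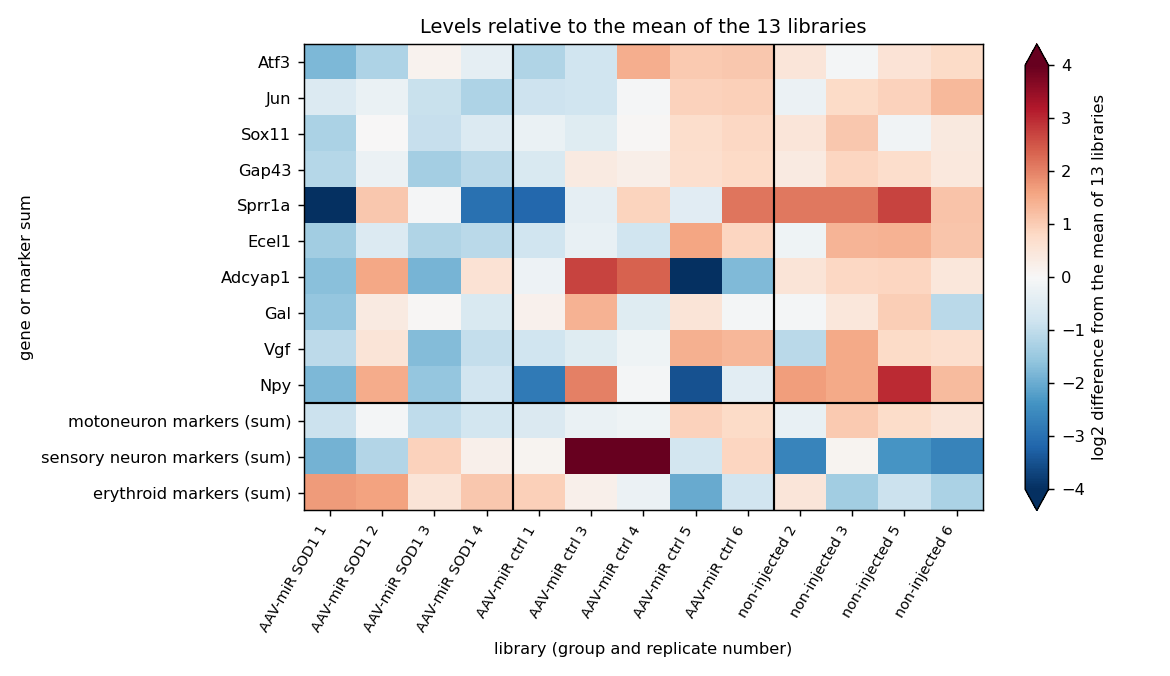
Rows are the 10 genes and 3 marker sums, columns the 13 libraries by group and replicate number; colour gives the log2 difference of each value from the mean of the 13 libraries, blue below and red above, with values past 4 in either direction shown at the end of the scale. AAV-miR SOD1 replicate 1 was the lowest of all libraries for 5 of the 10 genes, and sensory neuron markers were highest in AAV-miR ctrl replicates 3 and 4. The share of all genes that were lowest in AAV-miR SOD1 replicate 1 was not counted.

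The surrounding pathway was read from 5 lists of related genes, here for AAV-miR SOD1 against both controls; no gene of them passed an adjusted p of 0.05 by edgeR. Of 12 other injury-related transcription factors, 3 were lower and 0 higher at an unadjusted p under 0.05, beside 12.1% and 10.2% of all genes, and the median log2 fold change was 0.00. The lower ones were Stat3, a factor activated by cytokines and injury (-0.50 ± 0.17 SE), Crem (-0.49 ± 0.19) and Klf7 (-0.35 ± 0.15). Myc had 0.66 ± 0.31 (unadjusted p = 0.0541).

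Of 29 growth and injury effectors tested (30 listed), 12 were lower and 3 higher at that level, beside 12.1% and 10.2% of all genes. Their median was -0.63. The smallest p-values were those of Bdnf, a neurotrophin (-1.64 ± 0.41 SE), Nts, the neurotensin precursor (-1.60 ± 0.44), Dpysl2, a microtubule regulator of growth cones (-0.85 ± 0.24), and Chl1, an adhesion protein (-1.32 ± 0.38). Bdnf levels were 2.49 to 5.31 CPM in AAV-miR SOD1, 7.51 to 21.1 in AAV-miR ctrl and 4.24 to 15.3 in non-injected. The higher genes, 3 of 29, were near the share over all genes. They were chosen here after their values were seen: Plaur (0.83 ± 0.27), Cd44 (0.80 ± 0.29) and Gadd45a (0.56 ± 0.24). Plaur and Cd44 are surface receptors that macrophages also make.

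Of 14 genes of the axon damage kinase and stress pathway, 7 were lower and 0 higher, beside 12.1% and 10.2% of all genes. Their median was -0.53. Chac1, a stress-induced glutathione enzyme, had -1.06 ± 0.33 (SE), Mapk10, the neuronal JNK3 that phosphorylates Jun, -0.94 ± 0.29, Nmnat2, the axon survival factor, -0.64 ± 0.25 and the JNK scaffold Mapk8ip3 -0.57 ± 0.21.

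The list of 12 peptide processing and dense-core vesicle genes covers those that pack and cut the precursors of Vgf, Gal, Npy and Adcyap1. Of the 12, 9 were lower and 0 higher, beside 12.1% and 10.2% of all genes, with a median of -0.91. Scg5 had -1.09 ± 0.25 (SE), Chgb -1.05 ± 0.33, Scg3 -0.98 ± 0.29 and Scg2 -0.94 ± 0.27, all of them granin or granin-binding genes of secretory granules. Of the 7 peptide receptors tested (10 listed), 3 were lower and 0 higher, beside the same shares of all genes, with a median of -0.57. The lower ones were the neuropeptide Y receptor gene Npy5r (-1.78 ± 0.57), the PACAP receptor gene Adcyap1r1 (-0.84 ± 0.27) and Vipr2 (-0.86 ± 0.28), whose product also binds PACAP. Npy1r had -0.57 ± 0.45. With the motoneuron marker covariate, the medians of the 5 lists in the order given were 0.10, -0.01, -0.06, -0.12 and -0.07, and the counts lower at the unadjusted level were 0, 2, 0, 1 and 1, beside 3.31% of all genes. The limit given above for this covariate holds here too.

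**Figure D4:**
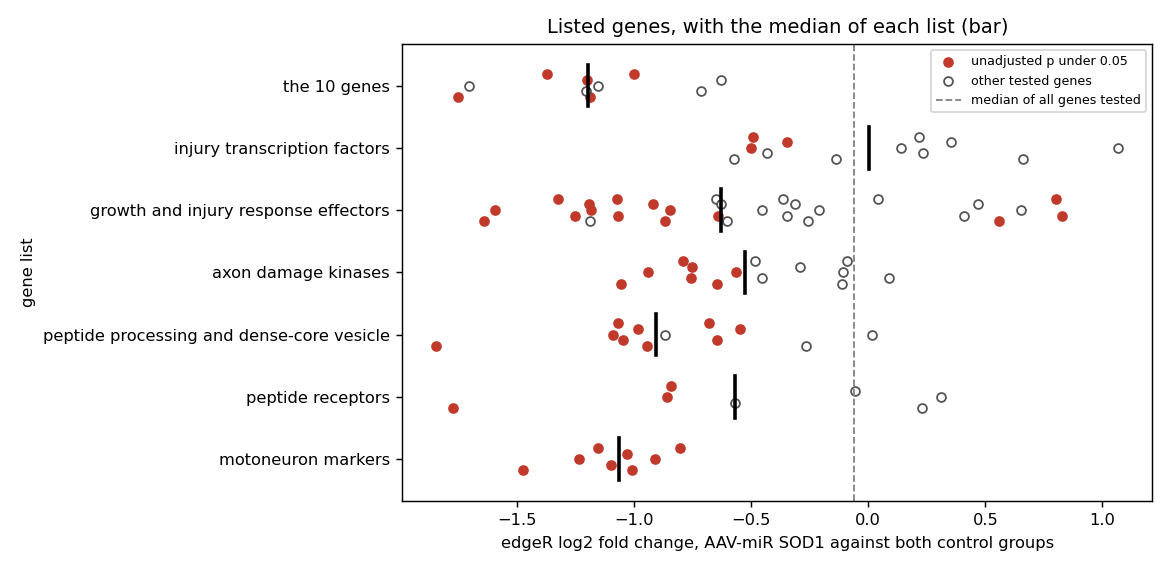
Each point is the edgeR log2 fold change of 1 gene in AAV-miR SOD1 against both control groups, by list; filled red points have an unadjusted p under 0.05, black bars are list medians and the dashed line is the median of all genes tested. The 10 genes (median -1.20) and the 8 motoneuron markers have the lowest medians, and the other injury transcription factors spread on both sides of 0.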

How the data were processed

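RNA of pooled laser-captured motoneurons was amplified with a low-input kit and sequenced, per the labels' protocols. The authors deposited 1 table of raw counts for each library, with 48709 gene rows and 5 summary rows that were left out. The submitters' processing notes name cutadapt 1.8, STAR 2.5.2b, HTSeq 0.6.1 and GRCm38; their roles, the annotation and the strand setting are not given in the sources used here. Symbols and exon lengths came from GENCODE M21, in which 48349 rows were named. The 10 genes and all lists were chosen with earlier results of these data known.

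Genes were kept by edgeR's filterByExpr (minimum count 10, minimum total count 15), leaving 17403. TMM scaling and edgeR's quasi-likelihood F test (edgeR 4.0.16, R 4.3.3) were applied to all 13 libraries with 3 groups, Benjamini-Hochberg adjustment over all genes tested and a threshold of 0.05. SE is the log2 fold change divided by the root of F. The fits had 10 residual degrees of freedom and a common biological coefficient of variation of 0.470. They were tested on counts simulated with known changes in AAV-miR SOD1 against both controls. There edgeR recovered 16 of 67 genes changed 2-fold and 59 of 67 changed 4-fold, with 5 false calls, so most 2-fold changes were missed. DESeq2 recovered 20 and 62 with 26 false calls, and limma-voom 14 and 55 with 3. The counts were simulated with the spread typical of genes at each level, not with each gene's own. The recovery rates need not hold for genes of wide spread such as Adcyap1, Sprr1a and Npy. CPM use TMM-scaled library sizes, and log2 CPM a prior count of 2. A floor of 3 counts was used, which covers counting error only. P-values measure the spread between mice, 1 per library.

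All 10 genes are named. From 5 pathway lists every gene with an adjusted p under 0.05 was to be named, and otherwise the 4 with the smallest p against both controls. Marker lists are given as sums, and the motoneuron markers also as counts. Sums for astrocytes, oligodendrocytes, interneurons, Schwann cells and endothelium had medians of 506, 1636, 19.3, 555 and 158 CPM in AAV-miR SOD1. They had 798, 3028, 33.8, 654 and 155 CPM in AAV-miR ctrl and 589, 2448, 21.5, 934 and 162 CPM in non-injected. Alternatives were other scalings, filters and tools (DESeq2 1.42.0, limma-voom with limma 3.58.1), the groups compared alone, a replicate block, library subsets, a motoneuron marker covariate and leaving out each library. Leaving out AAV-miR ctrl replicates 3 and 4, the covariate without Prph and the counts at an unadjusted p were added after the data had been seen.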

Additional observations from a re-analysis of the deposited data

How the results depend on the processing

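Of 1110 recomputed log2 fold changes of the 10 genes, 1052 kept their direction and their side of the adjusted threshold, 12 gained a call and 46 changed sign; no cause was tested. The count called was 0 in each main comparison. DESeq2 gave 1 against AAV-miR ctrl, 3 against non-injected and 3 against both, limma-voom 2 against both, and leaving out 1 library 0 to 0, 0 to 0 and 0 to 3; AAV-miR ctrl against non-injected stayed at 0 to 0. Counts at an unadjusted p under 0.05 (for AAV-miR SOD1, 5 against AAV-miR ctrl, 5 against non-injected and 5 against both, and 0 between the controls) ran over 2 to 6, 3 to 7, 3 to 7 and 0 to 1 without 1 library. Shares of all genes under that p stand in brackets. Against AAV-miR ctrl the count was 3 with total count scaling (12%) or the 2 groups alone (14.8%), 1 with libraries 1 to 4 (4.88%) or the motoneuron covariate (6.75%) and 2 with it without Prph (5.67%). Against non-injected it was 8 with limma-voom (24.3%), 3 with the header libraries exchanged (14.8%) or left out (12.7%) and 2 with the covariate (6.48%) or with it without Prph (5.76%). Between the controls it was 2 with limma-voom (4.42%) and 1 with libraries 1 to 4 (5.07%), the header libraries exchanged (4.48%) or left out (3.84%), the covariate (3.69%), or AAV-miR ctrl replicates 3 and 4 left out (3.08%). Against both it was 3 with libraries 1 to 4 (14.2%) and 2 with the covariate (7.34%) or with it without Prph (6.14%).

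Whether replicate numbers pair the libraries is not stated in the labels. Across groups, 8 pairs with the same number had correlations of -0.19 to 0.24, 3 of them over 0.1. The 48 pairs with different numbers had -0.38 to 0.34, 15 of them over 0.1. No pairing was seen, but 8 pairs are too few to decide it. With the replicate block the unadjusted counts were 1, 3, 2 and 0 in the same order (8.82%, 8.28%, 11.1% and 2.67%), with 0 genes called, and Adcyap1 had -0.69 between the controls. Signs changed as follows. Against AAV-miR ctrl, Npy had 0.12 and 1.30 with the header libraries exchanged and left out, 0.30 with limma-voom, 1.92 without AAV-miR ctrl replicates 3 and 4, 0.0077 with total count scaling and -1.71 to 1.31 without 1 library. Adcyap1 had 0.28 with limma-voom and, without AAV-miR ctrl replicates 3 and 4, 1.81 there and 0.75 against both; against non-injected it ran from -1.26 to 0.034 without 1 library. With the motoneuron covariate, and with it without Prph, Jun had 0.10 and 0.20, Sprr1a 0.056 and 0.37 and Vgf 0.39 and 0.60 against AAV-miR ctrl; Vgf had 0.83 and 0.93 against non-injected, 0.61 and 0.76 against both and 0.44 and 0.33 between the controls. Between the controls, exchanging the header libraries gave Adcyap1 -0.80, Ecel1 0.071, Gal -0.42, Gap43 0.014, Sox11 0.46 and Vgf 0.77, and leaving them out Gal -0.068, Sox11 0.15 and Vgf 0.43. Limma-voom gave Adcyap1 -1.24 and Atf3 -0.012, and leaving out AAV-miR ctrl replicates 3 and 4 gave Adcyap1 -2.12, Gal -0.021 and Vgf 0.21. Without 1 library, Adcyap1 ran from -0.0019 to 1.02, Atf3 from -0.10 to 0.44, Gal from -0.16 to 0.58 and Vgf from -0.51 to 0.23. Adcyap1, Npy and Sprr1a had 0 to 2 counts in some libraries, not the shallowest ones: AAV-miR ctrl replicate 5, at 37.3 megacounts, had 0 counts of Adcyap1 and 1 of Npy, and replicate 4, at 13.9, had 114 and 14. For these 3 genes a prior count of 0.5 in place of 2 moved a library's log2 CPM by up to 2.0, 1.21 and 0.64.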
